A study of Saccharomyces cerevisiae with 12 samples.

Results

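RNA sequencing counts were examined for *S. cerevisiae* cells carrying the *tra1Q3* allele as they aged from day 0 to day 3. These are 6 of the 12 libraries in the series, chosen by their labels: replicates 1, 2 and 3 at day 0 and replicates 2, 3 and 4 at day 3. A gene was compared if 3 or more of these libraries gave it 10 or more counts, which left 6195 of 6691 genes. The other 6 libraries come from *TRA1* cells at the same days, and they enter only where the change with age is compared between the genotypes. Both strains derive from W303A and are labelled *MATa*, with *ade2-1* and *can1-100* as well as the auxotrophic alleles *trp1-1*, *leu2-3*, *his3-11* and *ura3-1*. In both, the allele at *TRA1* is FLAG-tagged and linked to *URA3* and *HIS3*, and both carry the plasmid YCplac111-DED1pr-YHR100. The mutant allele exchanges 3 arginines for glutamines in the PI3K domain. In the study, saturated cultures were diluted into minus-leucine medium, grown for a few hours and sampled at day 0 and again at day 3, when they were stationary. The labels name mid-log growth and synthetic complete medium instead. The study calls the replicates biological, and the labels do not say how the cultures were separated, so the p-values below measure only the spread between these samples.

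Tra1 is a large protein of the PI3K-related family that has lost kinase activity. It is a subunit of both SAGA and NuA4, the coactivator complexes that acetylate histones, and it is the surface through which activators bring these complexes to promoters. In chronological aging, yeast cells use up glucose, stop dividing and stay alive without division. Cells of a normal stationary culture shut down ribosome synthesis, turn from fermentation to respiration and the use of ethanol and acetate, and build up chaperones, storage carbohydrates and autophagy proteins.

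Totals ran from 21882019 to 28079682 counts in the 6 libraries, and the counts below were scaled to a common library size by TMM (normalized counts). Replicates resembled each other closely. For pairs of replicates the median squared difference was 2.98 to 4.63 times what counting error alone would give. Aged *TRA1* replicate 2 stood apart from its partners, with ratios of 87.3 and 91.3 where the other pair had 11.3. Transcripts abundant in aged cells were also read in the mutant's day 0 libraries, unequally. For 7 genes with high counts in aged *TRA1* libraries (*DPA10*, *GRE1*, *MLS1*, *RGI2*, *SIP18*, *SPG4* and *SPS100*), the median day 0 level was 0.0778% of the aged *TRA1* level in replicate 1, but 0.891% in replicate 2 and 0.781% in replicate 3. A fit of day 0 replicates 2 and 3 as mixtures gave 0.726% and 0.701% of an aged *TRA1* profile, with a further 0.598% and 0.462% of an aged *tra1Q3* profile. The source of these transcripts was not tested. Genes that were near 0 at day 0 are therefore also given with day 0 replicate 1 as the only control. Of 2847 called genes with a value in that fit, 55 raised genes and 0 lowered genes moved by over 1.5-fold, 0 changed sign, and 20 no longer passed the adjusted p. *TRA1* itself was read in every library, at 22690, 21259 and 21063 normalized counts at day 0 and 41778, 42593 and 41029 at day 3. The groups did not overlap, and the log2 fold change was 0.95 ± 0.0486 (SE), just under the size asked of a call. The change exceeded that in *TRA1* cells by 1.11 on the log2 scale (edgeR adjusted p = 1.5e-06), which is over that size. Without aged *TRA1* replicate 2 this difference was 1.14.

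Aging changed the mutant's transcriptome widely, and in both directions relative to the bulk of genes. A gene was called raised or lowered at an edgeR adjusted p of 0.05 or less and an absolute log2 fold change over 1, and "rose" and "fell" are used for such genes only. A difference between the genotypes, taken as the change in *tra1Q3* minus that in *TRA1* cells, was called by the same p and size. By this rule 1446 genes (23.3%) rose and 1423 (23%) fell, 46.3% of those tested. Without the size threshold, 2778 genes were higher and 2785 lower at day 3. Of the raised genes 526 exceeded a log2 fold change of 2, and 178 exceeded 3. Of the lowered genes 585 and 206 did so. The day 3 and day 0 libraries did not overlap for 90.3% of genes tested, and for 1444 of the raised and 1423 of the lowered genes. The median over all genes was 0.01. TMM scaling places the bulk of genes near 0, so every rise or fall is relative to the other transcripts of a library. Whether the total mRNA of a cell changed with age was not tested.

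**Figure D1:**
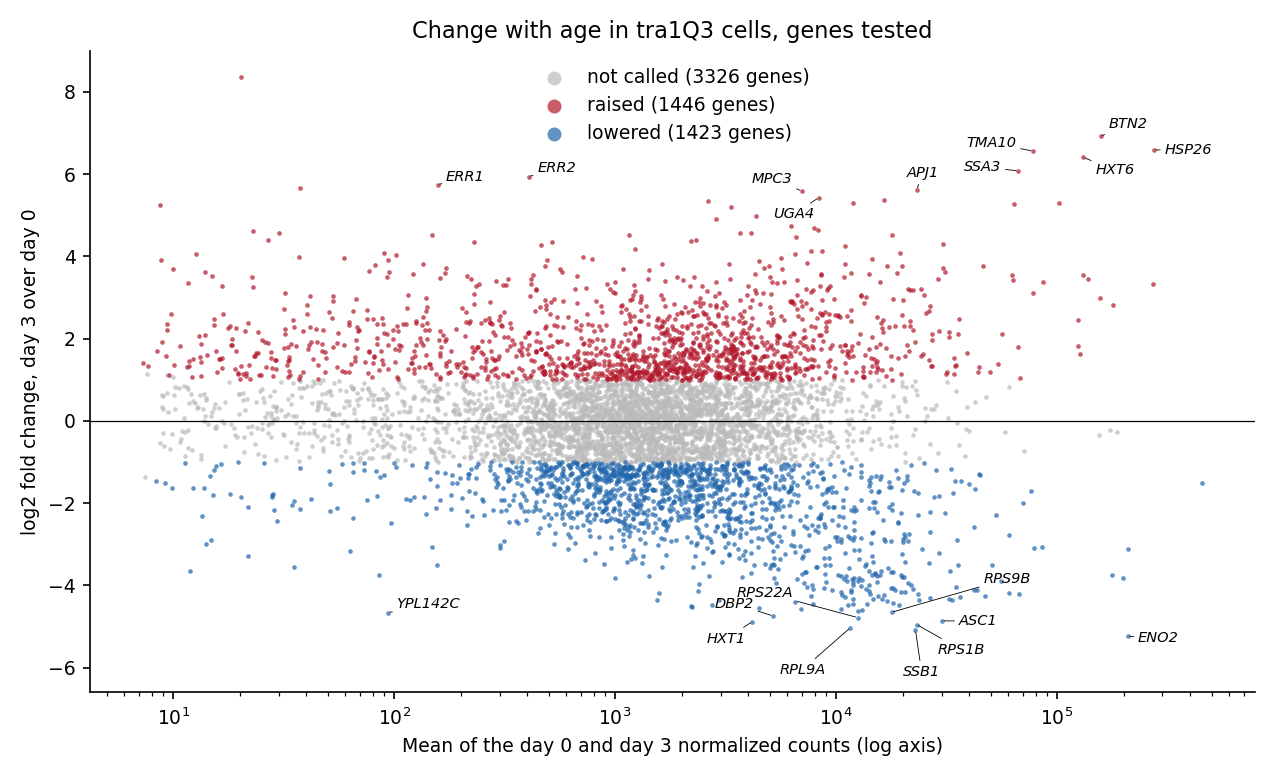
Log2 fold change of each gene tested, day 3 over day 0 in *tra1Q3* cells, against the mean of its day 0 and day 3 normalized counts on a log axis. Red points are the 1446 raised genes, blue points the 1423 lowered genes and grey points the rest. Names mark the 10 largest changes in each direction among called genes with a mean of 100 or more normalized counts at either day. Named genes also had no overlap between the libraries of the days, and larger rises outside these limits carry no name.

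Among genes that reached a mean of 100 normalized counts at either day, those that rose most included genes for protein folding and sorting. *BTN2*, whose product gathers misfolded proteins and takes part in endosomal sorting, stood at 1652, 3091 and 3018 normalized counts at day 0 and 324767, 293452 and 316717 at day 3. This was a 121-fold increase, with a log2 fold change of 6.92 ± 0.208 (SE, edgeR adjusted p = 1.67e-13). *HSP26*, a small heat shock protein that binds unfolded proteins, went from 2752, 7163 and 7032 to 571974, 502270 and 554965 counts. The stress gene *TMA10*, the Hsp70 gene *SSA3*, the Hsp40 gene *APJ1*, the mitochondrial pyruvate carrier gene *MPC3* and the GABA permease gene *UGA4* rose 43.0-fold to 94.3-fold. *HXT6*, a high-affinity glucose transporter gene, rose 84.8-fold, but it is nearly identical to *HXT7* and only 5.1% of its 100-base windows are unique in the genome. *ERR1* and *ERR2*, enolase-related genes without a single unique window, rose 53.6-fold and 61.3-fold, and which copy was read cannot be told apart. At day 0 *ERR1* stood at 0, 7.66 and 10.4 counts and *ERR2* at 5.24, 12 and 22.9, so that with replicate 1 alone *ERR2* was at 7.21 on the log2 scale instead of 5.94, and a fold for *ERR1* is not given against a single library at 0. With day 0 replicate 1 alone, the log2 changes were larger still, 7.55 for *BTN2*, 7.61 for *HSP26*, 7.16 for *TMA10* and 6.93 for *SSA3*.

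The 10 that fell most included *ENO2* of glycolysis and several genes of translation. *ENO2*, the enolase of fermenting cells, fell from 412191, 398613 and 408603 counts to 10601, 11050 and 10730, a log2 fold change of -5.23 ± 0.0756 (SE, edgeR adjusted p = 8.83e-17). *SSB1*, an Hsp70 that sits on the ribosome and folds nascent chains, fell by 5.08 on the log2 scale. The ribosomal protein genes *RPL9A*, *RPS1B*, *RPS22A* and *RPS9B* fell by 4.65 to 5.03, and *ASC1*, the ribosome's RACK1 subunit, fell by 4.86. *HXT1*, a low-affinity glucose transporter gene, fell by 4.88, and *DBP2*, an RNA helicase gene, by 4.74. The unnamed reading frame YPL142C fell by 4.66 from 171, 216 and 157 counts, with 285 of its bases overlapped by another gene. A gene entered this group only if its day 0 and day 3 libraries did not overlap, and the same held for the raised genes above.

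Ribosomal protein genes behaved almost as a unit. Of 137 tested, 133 fell and 0 rose, with a median log2 fold change of -3.73 beside 0.01 over all genes. Together they held 13.4%, 13.2% and 14.2% of all counts at day 0 and 1.2%, 1.21% and 1.2% at day 3. *RPL9A* fell from 22214, 21294 and 23920 counts to 680, 654 and 730. The 4 that did not pass were *RPL28*, *RPL9B*, *RPL33A* and *RPL15B*, at log2 fold changes of -1.0, -0.85, -0.63 and 0.13 (named after their values were seen). Several of these genes have a near-identical copy, and counting only uniquely mapped reads can lower or divide the counts of such pairs. For 16 of the 137 another coding sequence overlaps the gene, and reads in the overlap can be lost.

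The machinery that builds and uses ribosomes fell with them. Of 115 ribosome biogenesis genes 89 fell and 3 rose, with a median of -2.19. *NSR1*, a nucleolar protein of pre-rRNA processing, went from 9182, 8179 and 8430 counts to 381, 359 and 370, a log2 fold change of -4.54 ± 0.0588 (SE), with 584 of its bases overlapped by another gene. *BRX1*, needed for the large subunit, fell by 4.13, *NOP56*, a core protein of box C/D snoRNPs, by 3.94, and *KRE33*, an rRNA acetyltransferase gene, by 3.78. Against this direction, *NSA1* rose from 3083, 3229 and 3300 to 11399, 13172 and 12907 counts, and *RIO1*, a kinase of small subunit maturation, rose from 1528, 1774 and 1649 to 5892, 5655 and 6279. Of 19 subunits of RNA polymerase I and III, the polymerases of rRNA and tRNA genes, 14 fell and 0 rose. The polymerase I subunits *RPA49* and *RPA43* fell by 4.51 and 4.36. *RPA12* fell by 3.38 and *RPA135* fell by 3.34. Of 28 translation factors 23 fell and 0 rose. *TIF1* (eIF4A) and the eIF3 subunits *NIP1* and *PRT1* fell by 3.50, 3.49 and 3.18. *YEF3*, the fungal elongation factor 3, fell from 132248, 119349 and 128050 counts to 6945, 6911 and 6840.

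Promoters of the lowered ribosome biogenesis genes are shown since these genes share a pair of known motifs. The PAC motif (GATGAG) and the RRPE motif (AAAATTT) were searched on both strands in the 300 bases before the start codon, in the R64 genome from RefSeq. PAC was found in 102 of 115 ribosome biogenesis promoters (88.7%) and RRPE in 109 (94.8%), against 19% and 23.5% of all 6662 promoters. Of the polymerase I and III subunits 84.2% held each. Among all lowered genes 27.3% held PAC and 39.3% held RRPE, and among raised genes 18% and 17.1%. The raised *RIO1* and *NSA1* hold RRPE as well. In the stretches below, written 5′ to 3′ on the strand of the gene, capitals mark matches to either motif in either orientation.
NOP56, chrXII:545917-546006, plus strand: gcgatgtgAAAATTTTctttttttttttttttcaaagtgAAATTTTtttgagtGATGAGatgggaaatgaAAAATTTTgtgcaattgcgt
KRE33, chrXIV:375126-375195, plus strand: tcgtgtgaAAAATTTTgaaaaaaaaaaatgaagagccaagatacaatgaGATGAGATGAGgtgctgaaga
NSR1, chrVII:807817-807866, minus strand: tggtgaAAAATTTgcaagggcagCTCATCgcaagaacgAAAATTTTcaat
RPA49, chrXIV:182709-182758, minus strand: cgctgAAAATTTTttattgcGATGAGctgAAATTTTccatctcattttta
RPA135, chrXVI:581277-581341, minus strand: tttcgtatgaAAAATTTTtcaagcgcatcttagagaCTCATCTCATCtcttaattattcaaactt
These 5 stretches were picked to show both motifs, in genes that fell by over 3 on the log2 scale.

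Genes of cell division moved in both directions. Of 9 cyclin genes 5 fell, namely the G1 cyclins *CLN1*, *CLN2* and *CLN3* and the mitotic cyclins *CLB1* and *CLB2*, by 1.46 to 1.93. *CLB5*, an S phase cyclin gene, rose from 643, 631 and 577 to 1200, 1210 and 1340 counts, a log2 fold change of 1.02 that dropped to 0.95 with day 0 replicate 1 alone. *CLB3*, *CLB4* and *CLB6* were at 0.16, 0.29 and 0.21. Of 34 DNA replication genes 11 fell and 1 rose. *RNR1*, the large subunit of ribonucleotide reductase, fell from 4644, 4261 and 4612 to 263, 292 and 316 counts, *RFC1* and *RFC4*, of the clamp loader, fell by 2.02 and 1.67 and *CDC45*, a partner of the helicase, fell by 1.93, whereas *MCM7*, a subunit of the replicative helicase, rose by 1.19. Of 10 histone genes 4 fell and 1 rose. *HTA2* fell by 2.80, the H2B genes *HTB2* and *HTB1* by 1.93 and 1.05, and the H4 gene *HHF2* by 1.19, while *HTA1*, which encodes nearly the same H2A protein as *HTA2*, rose from 13463, 13781 and 14484 to 40330, 36796 and 39842 counts. Its log2 fold change was 1.49 ± 0.0521 (SE, edgeR adjusted p = 9.53e-13). In aged *TRA1* cells *HTA1* was at 0.04, and the difference between the genotypes, 1.42, passed the test (edgeR adjusted p = 2.16e-06). The other histone genes were not called, with *HHT1*, *HHT2* and *HHF1* at -0.57, -0.20 and -0.61, the H2A.Z gene *HTZ1* at -0.40 and the linker histone gene *HHO1* at 0.69.

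**Figure D2:**
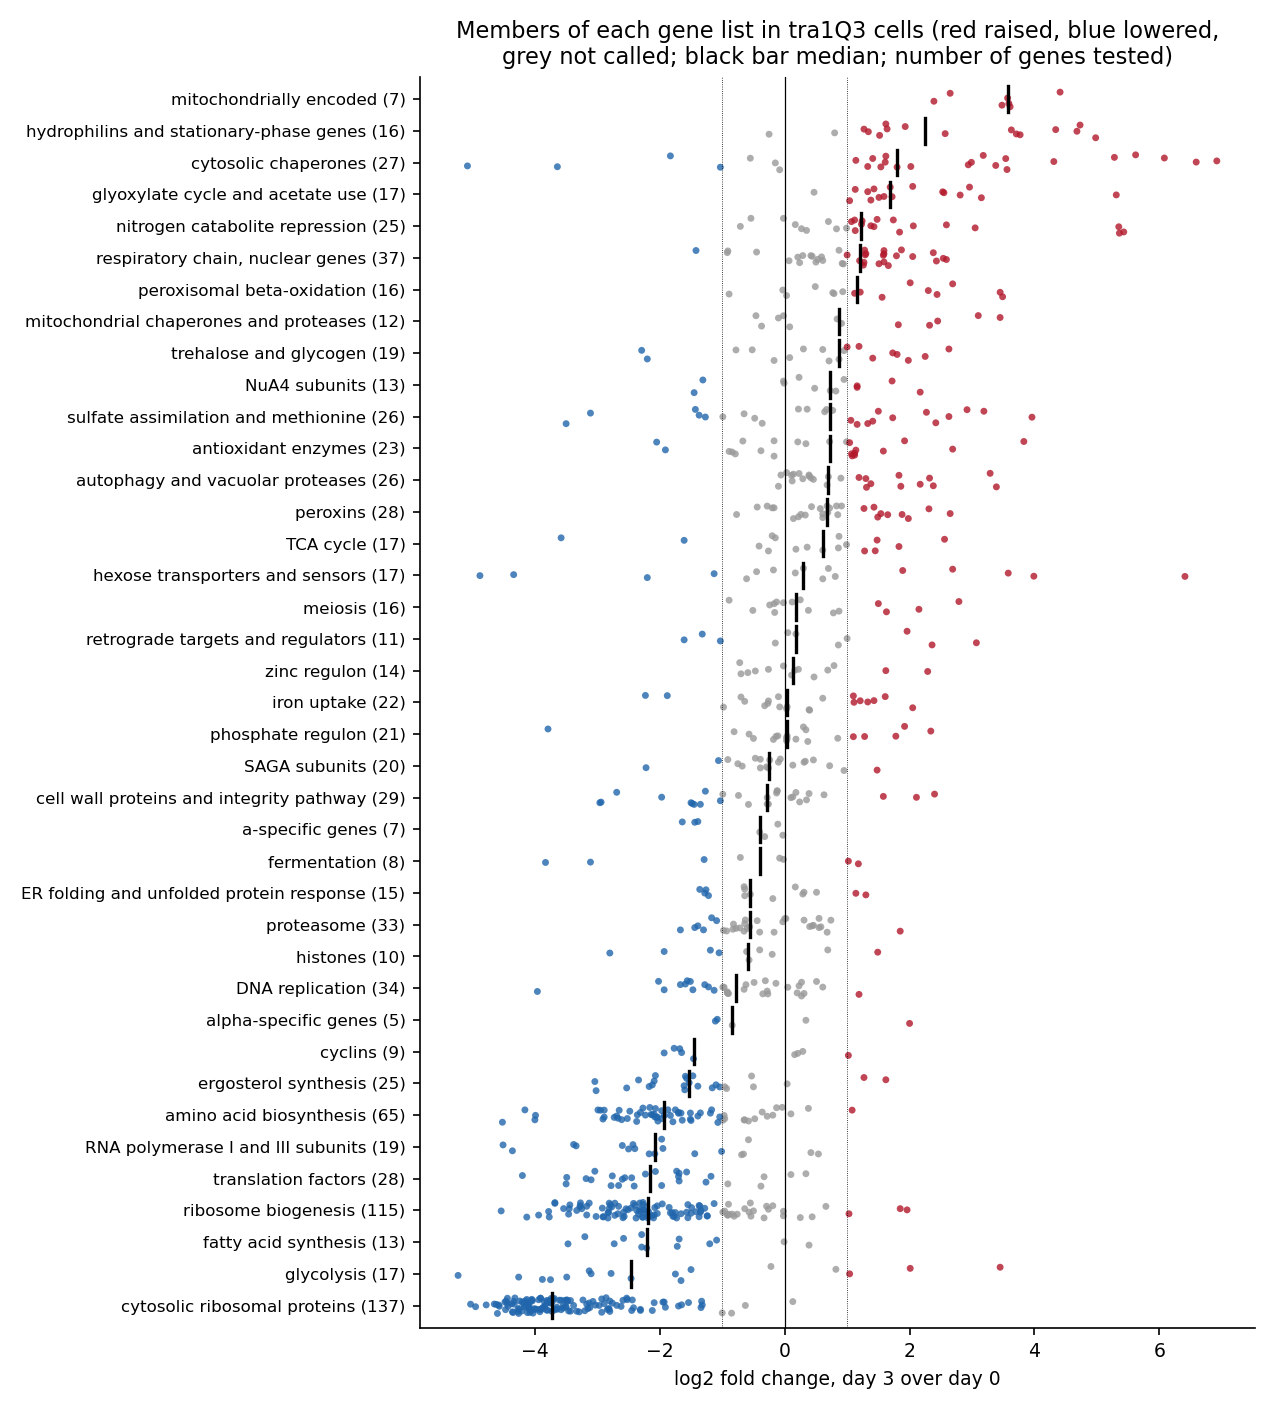
Log2 fold change, day 3 over day 0 in *tra1Q3* cells, for the tested members of each gene list, with the number of members beside the name. Red points rose, blue points fell, grey points were not called and the black bar is the median, which runs from -3.73 for ribosomal proteins to 3.57 for mitochondrially encoded genes.

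Glycolysis fell almost throughout. Of 17 genes 12 fell and 3 rose, with a median of -2.46, and the list's share of counts went from 9.99%, 9.89% and 9.80% to 4.16%, 4.0% and 3.92%. *FBA1*, the aldolase, fell from 337679, 317151 and 335429 to 23957, 25688 and 24164 counts. *TDH2*, a glyceraldehyde phosphate dehydrogenase gene, fell by 4.26 and *GPM1*, the phosphoglycerate mutase, by 3.88. The 3 that rose are alternative forms of the first and last steps. *HXK1*, the hexokinase of cells without ample glucose, rose 11.0-fold from 22592, 24603 and 22258 to 258431, 248112 and 254326 counts, *PYK2*, a pyruvate kinase active at low fructose bisphosphate, rose 4.02-fold, and the glucokinase *GLK1* rose by 1.04 on the log2 scale (*GLK1* was named after its value was seen). Of the fermentation genes, *PDC1*, the main pyruvate decarboxylase, and *ADH1*, the main alcohol dehydrogenase of fermentation, fell by 3.11 and 3.83, and *PDC5*, another such decarboxylase, fell by 1.29. *ADH4* and *ADH5* were at -0.02 and -0.71. *ADH3*, a mitochondrial alcohol dehydrogenase, rose from 8592, 8707 and 8810 to 20037, 19606 and 19521 counts. *ADH2*, the enzyme that oxidizes ethanol and is repressed by glucose, stood at 450, 462 and 532 counts at day 0 and 447, 475 and 439 at day 3. The groups overlapped, with a log2 fold change of -0.08 ± 0.0799 (SE, edgeR adjusted p = 0.323). *PDC6* was at 68, 508 and 461 counts at day 0 and 652, 706 and 697 at day 3. Its log2 fold change of 1.02 became 3.32 with replicate 1 alone and 0.49 without that replicate, so its call rests on day 0 replicate 1.

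Of 17 hexose transporter and sensor genes 5 rose and 4 fell, shares near those of all genes. *HXT1* and *HXT3*, transporters of low affinity used at high glucose, fell by 4.88 and 4.34, *HXT3* from 64672, 60922 and 59610 to 3024, 3013 and 3099 counts. *HXT6* stood at 2499, 3490 and 3182 counts at day 0 and 272017, 236189 and 268282 at day 3, and *HXT10* rose 15.9-fold from 86, 90 and 77 counts. *HXT4* fell by 1.13.

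Genes of the glyoxylate cycle, gluconeogenesis and acetate use rose in the mutant, but by less than in *TRA1* cells. Of 17 such genes 16 rose and 0 fell, with a median of 1.69. The same list had a median of 6.31 in *TRA1* cells, where 17 rose. For 15 of the 17 the change was lower in *tra1Q3* cells by the test of the difference, and for 0 it was higher, against 17.9% and 13.6% of all genes in that comparison. *MLS1*, malate synthase, stood at 87, 1061 and 944 counts at day 0 and 1964, 1905 and 1967 at day 3. The log2 fold change was 1.51 ± 0.450 (SE, edgeR adjusted p = 0.00586), 4.47 with day 0 replicate 1 alone and 0.95 without it. *ACS1*, an acetyl-CoA synthetase gene, rose by 1.72, or by 2.39 with replicate 1 alone, from 450, 853 and 886 counts. *CRC1* and *CAT2*, which serve carnitine transport and transfer, rose by 3.15 and 2.81, or by 3.88 and 3.08 with replicate 1 alone. *JEN1*, the lactate and pyruvate permease, rose 39.8-fold from 296, 766 and 718 to 25010, 22347 and 22420 counts. Its log2 change of 5.31 became 6.29 with day 0 replicate 1 alone, and its difference between genotypes went from -1.22 to -0.22 (edgeR adjusted p = 0.393). *ADR1*, an activator of this program, rose 7.79-fold from 2248, 2297 and 2173 counts. It and *CAT8*, another such activator (named after its value was seen), were the 2 genes whose difference between genotypes was not called. That of *ADR1* was 0.43, which passed the edgeR adjusted p (0.0019) but not the size, and that of *CAT8* was -0.02 (edgeR adjusted p = 0.898). With day 0 replicate 1 alone the median of the list was 2.39, and 14 of the 17 genes still differed between the genotypes.

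In the TCA cycle, 5 of 17 genes rose and 2 fell. *SDH2*, a succinate dehydrogenase subunit, rose by 1.83 and *CIT3*, a minor mitochondrial citrate synthase, by 2.56. *ACO1*, the main aconitase, fell from 26307, 26491 and 26948 to 8835, 8551 and 8665 counts. The other TCA cycle gene that fell had the larger change and is not reported here. *ACO1* moved the other way in *TRA1* cells, at 1.47, with a difference of -3.11 (edgeR adjusted p = 4.06e-09). Of the regulators of mitochondrial retrograde signalling, *RTG1* rose by 2.36 and *RTG3*, its partner, fell by 1.32. *PYC1*, a pyruvate carboxylase gene, rose 8.38-fold. *CIT2*, the peroxisomal citrate synthase and the best known target of this pathway, rose from 10549, 11273 and 11343 to 44636, 41163 and 43579 counts, a log2 fold change of 1.96, against 3.49 in *TRA1* cells (difference -1.55, edgeR adjusted p = 5.92e-06). *DLD3*, another target, fell by 1.03. *RTG2* was at 1.0, *MKS1*, a repressor of the pathway, at 0.05, and *CIT1*, *IDH1* and *IDH2* were at 0.86, 0.18 and -0.15, and these 5 were not called.

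Respiratory chain genes rose in both genomes. Of 37 nuclear genes 20 rose and 1 fell, with a median of 1.20, and their share of counts went from 1.11%, 1.16% and 1.12% to 2.43%, 2.42% and 2.36%. *QCR8*, a subunit of complex III, rose from 6165, 7271 and 6754 to 36537, 36118 and 36469 counts. *QCR9*, of the same complex, rose by 2.54 and *COX13*, of cytochrome oxidase, by 2.38. Of the external NADH dehydrogenases, *NDE2* rose by 2.59, or by 3.18 with day 0 replicate 1 alone, and *NDE1*, the major one, fell by 1.42. All 7 mitochondrially encoded genes tested rose, with a median of 3.57. *ATP6*, a subunit of the ATP synthase, rose 21.3-fold from 182, 215 and 231 to 4748, 3695 and 4853 counts. *COX1*, *OLI1* and *VAR1* rose by 2.39, 3.61 and 2.65, and *ATP8*, at 2.62 to 4.17 counts at day 0, was too low to be tested. *COX2* showed how uneven the libraries were for some of them, at 26, 20 and 32 counts at day 0 but 556, 190 and 194 at day 3, and *COX3* and *COB* were likewise highest in day 3 replicate 2. Without that library the median was 2.88. Yeast mitochondrial messages lack the poly(A) tail by which the libraries were enriched, and these genes held only 0.00479% to 0.0503% of the counts. Whether their recovery changed with age was not tested.

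Peroxisomal genes rose in part. Of 16 genes of beta-oxidation, which in yeast takes place only in peroxisomes, 9 rose and 0 fell, with a median of 1.17 against 2.72 in *TRA1* cells. *PXA2*, a subunit of the fatty acid transporter, rose 11.2-fold from 792, 816 and 853 to 8352, 10064 and 9180 counts. *SPS19*, a dienoyl-CoA reductase gene, rose 11.0-fold, *CTA1*, the peroxisomal catalase, 6.47-fold and *FOX2*, the multifunctional enzyme, 5.44-fold. The thiolase gene *POT1*, at 264, 351 and 400 counts against 639, 650 and 629, missed the size threshold with 0.93, whereas it was at 6.09 in *TRA1* cells, and the difference was -5.19 (edgeR adjusted p = 5.93e-08). *POX1*, the acyl-CoA oxidase, rose by 1.12, *ECI1* and *DCI1*, isomerase genes, were at 0.79 and -0.89, and the thioesterase *TES1* was at 0.03. For 9 of the 16 genes the change was lower in *tra1Q3* cells and for 1 it was higher, against 17.9% and 13.6% of all genes. Of 28 peroxins, the proteins that build peroxisomes, 9 rose and 0 fell. *PEX18* rose 6.27-fold, *PEX15* 4.96-fold, *PEX22* 3.93-fold and *PEX2* 3.69-fold, and *PEX34* and *PEX21* were at 0.26 and -0.17.

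Cytosolic chaperone genes rose in the mutant more often than in *TRA1* cells. Of 27 cytosolic chaperone genes 20 rose and 4 fell, with a median of 1.80, and they took 1.70%, 1.72% and 1.67% of all counts at day 0 but 11.2%, 10.5% and 11.0% at day 3. In *TRA1* cells 5 rose and 4 fell, with a median of -0.16. For 19 of the 27 the change was higher in *tra1Q3* cells by the test of the difference, and for 3 it was lower, whether or not aged *TRA1* replicate 2 was included. Over all genes these shares were 13.6% and 17.9%. *SSA4*, a heat-induced Hsp70, went from 2815, 3567 and 3297 to 117346, 127859 and 129692 counts, a 38.8-fold rise (log2 5.28 ± 0.0918 SE, edgeR adjusted p = 4.69e-16), against 0.92 in *TRA1* cells. *APJ1* went from 751, 1019 and 1014 to 45409, 45341 and 45571 counts. *SSA1*, a constitutive Hsp70, rose 7.94-fold, with 54.2% of its windows unique. *HSP42*, the small heat shock protein that sorts aggregates, rose from 19908, 21259 and 20375 to 244876, 234300 and 245081 counts. *HSP82* and *HSC82*, which encode Hsp90, rose by 3.38 and 1.80, and *CPR6*, an Hsp90 partner, rose 9.08-fold. *SSA3* rose 67.6-fold in the mutant and by 6.17 on the log2 scale in *TRA1* cells, a difference of -0.12 that did not pass (edgeR adjusted p = 0.765). With day 0 replicate 1 alone the difference turned to 0.75, with an edgeR adjusted p of 0.00753 but still under the size asked of a call.

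The chaperones that serve translation went the other way. *SSB1* went from 47352, 43719 and 42176 to 1353, 1285 and 1302 counts, with 630 of its bases overlapped by another gene, and *SSB2*, its near copy, from 63472, 58338 and 60010 to 4902, 4889 and 4748. *CNS1* and *CPR7*, Hsp90 partners, made up the 4 that fell (named after their values were seen). *SSA2*, the most similar gene to *SSA1*, was at -0.55 in the mutant and -3.52 in *TRA1* cells, a difference of 2.95 (edgeR adjusted p = 4.36e-05).

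**Figure D3:**
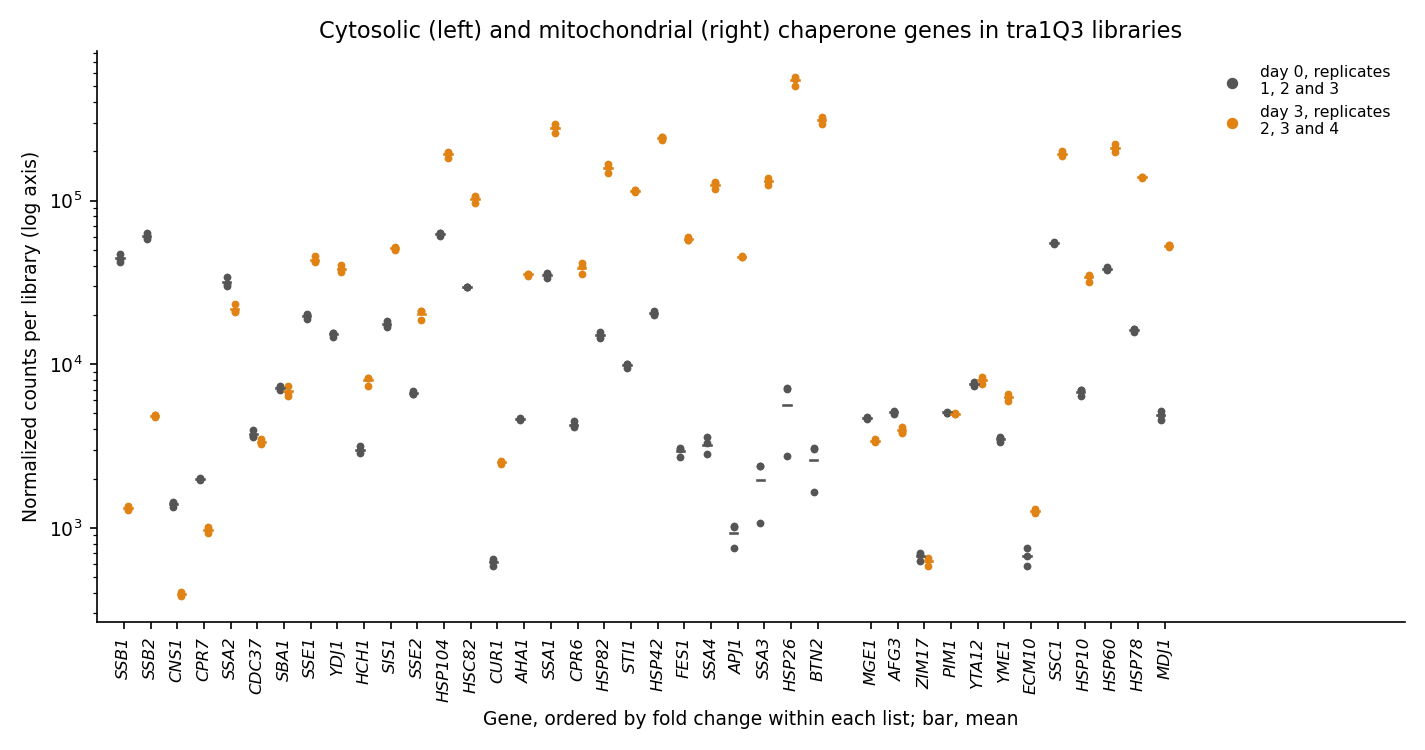
Normalized counts of cytosolic and mitochondrial chaperone genes in each *tra1Q3* library on a log axis, grey for day 0 and orange for day 3, with a bar at the mean of 3 libraries. *BTN2*, *HSP26*, *SSA3* and *APJ1* stand farthest apart between the days, and day 0 replicate 1 is the lowest grey point for each of these 4.

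Of 12 mitochondrial chaperone and protease genes 5 rose and 0 fell. *HSP60*, the chaperonin of the matrix, went from 38103, 39285 and 37561 to 221158, 199061 and 209509 counts, its cochaperonin *HSP10* rose 5.01-fold, the matrix Hsp70 *SSC1* rose by 1.82, its Hsp40 *MDJ1* 10.9-fold and the disaggregase *HSP78* 8.57-fold. The proteases *PIM1*, *YTA12*, *AFG3* and *YME1* were at -0.02, 0.08, -0.37 and 0.84. The nucleotide exchange factor *MGE1*, the Hsp70 *ECM10* and its helper *ZIM17* were at -0.46, 0.91 and -0.10. In *TRA1* cells none of the 5 rose, and each of the 5 differences, 2.53 to 3.04, passed the test. Chaperones of the endoplasmic reticulum did not move as a group. Of 15 genes 2 rose and 4 fell. *KAR2*, the Hsp70 of that compartment, rose from 26165, 25161 and 25462 to 59884, 66573 and 62724 counts and *IRE1*, the sensor of unfolded proteins, by 1.14, while *SIL1*, *FPR2* and *SCJ1* fell by 1.26 to 1.36, and the last of the 4 is *LHS1*, another Hsp70, which fell by 1.22 (named after its value was seen).

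Proteasome genes were mostly not called. *RPN4*, the activator of proteasome genes, rose from 4768, 4666 and 4841 to 17457, 16866 and 17303 counts (log2 1.85 ± 0.0415 SE), but it was the only raised one of 33 genes in the list, and 6 fell, with a median of -0.56. *RPN12*, *PUP1* and *PRE6* fell by 1.39 to 1.67. The site of Rpn4 (GGTGGCAAA, either strand) lies in the 300 bases before the start codon of 27 of the 33 genes (81.8%), against 1.17% of all promoters, and a pair of lowered genes that hold it is shown with the site in capitals.
PRE6, chrXV:255197-255246, plus strand: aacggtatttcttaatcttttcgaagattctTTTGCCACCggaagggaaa
PRE1, chrV:177670-177714, plus strand: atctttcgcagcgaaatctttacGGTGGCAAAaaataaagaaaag
*PRE1* fell by 1.17 (named after its value was seen).

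Heat shock elements were looked for before the chaperone genes, because Hsf1, the heat shock factor, binds repeats of such units. A pair of units facing inward or outward (TTCNNGAA or GAANNTTC, which can overlap each other) was present in 19 of 27 cytosolic chaperone promoters (70.4%), against 22.2% of all promoters. It was found before 22% of all raised and 25.3% of all lowered genes. The stress response element of Msn2 and Msn4 (CCCCT, either strand) was present in 25.9% of them and in 21.8% of all promoters. It was held by 29.8% of raised and 16.4% of lowered genes. In the stretches below capitals mark both kinds of match, the longer runs being heat shock elements and the runs of CCCCT or AGGGG stress response elements.
HSP42, chrIV:806371-806460, plus strand: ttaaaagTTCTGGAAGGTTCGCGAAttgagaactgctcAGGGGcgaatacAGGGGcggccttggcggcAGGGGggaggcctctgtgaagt
HSP78, chrIV:974404-974493, minus strand: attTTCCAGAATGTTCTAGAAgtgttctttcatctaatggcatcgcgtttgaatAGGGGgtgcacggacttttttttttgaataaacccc
SSA4, chrV:364329-364418, plus strand: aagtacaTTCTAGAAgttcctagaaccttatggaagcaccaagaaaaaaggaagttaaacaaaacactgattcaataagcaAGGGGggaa
HSP82, chrXVI:98766-98865, minus strand: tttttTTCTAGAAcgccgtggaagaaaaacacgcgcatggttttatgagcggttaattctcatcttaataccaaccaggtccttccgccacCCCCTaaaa
APJ1, chrXIV:481091-481140, plus strand: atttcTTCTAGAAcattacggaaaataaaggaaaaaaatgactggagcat
*SSA3* and *HSP26* hold no match to these letters in the 300 bases searched.

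Genes of starvation survival rose unevenly. Of 16 hydrophilin and stationary phase genes 14 rose and 0 fell, with a median of 2.25, or 3.75 with day 0 replicate 1 alone. *SPG1* and *SPG4*, needed for survival in stationary phase, were at 43, 387 and 399 and at 87, 675 and 641 counts at day 0, and at 7884, 8722 and 8608 and at 11942, 11516 and 12790 at day 3. Their log2 changes of 4.98 and 4.73 became 7.60 and 7.10 with replicate 1 alone. *SIP18*, a hydrophilin gene, reached only 1550, 1836 and 1711 counts, from 58, 949 and 817, a log2 fold change of 1.52 that was 4.87 with replicate 1 alone and 0.94 without it. *GRE1*, its relative, was at 163, 2253 and 2141 counts and then at 4033, 5007 and 4769, a log2 fold change of 1.62, or 4.81 with replicate 1 alone. *RGI1*, a gene of respiratory growth, rose from 574, 641 and 573 to 16740, 14605 and 14409 counts in the mutant and fell by 1.91 in *TRA1* cells. Of its 486 bases, 450 overlap another gene, and reads were counted without regard to strand.

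Of 26 genes of autophagy and vacuolar proteases 11 rose and 0 fell, with a median of 0.69. In *TRA1* cells 17 rose and 0 fell, with a median of 1.59. The change was lower in *tra1Q3* cells for 8 of the 26 and higher for 2, against 17.9% and 13.6% of all genes. *ATG8*, the ubiquitin-like protein of the autophagosome, rose 10.5-fold from 897, 1063 and 1085 to 9871, 10994 and 11017 counts, and *ATG39*, a receptor for autophagy of the nucleus, 9.81-fold. *ATG11* and *ATG5* rose by 2.38 and 2.32. For *ATG8* the difference between genotypes was 0.12 (edgeR adjusted p = 0.394), and 0.35 (edgeR adjusted p = 0.00837) with day 0 replicate 1 alone and without aged *TRA1* replicate 2. Among 23 antioxidant genes 10 rose and 2 fell. *GPX1*, a glutathione peroxidase gene, rose 14.2-fold and *PRX1*, the mitochondrial peroxiredoxin, by 1.92. *CTT1*, the cytosolic catalase, fell from 16855, 17339 and 16901 to 3948, 4888 and 4717 counts and *TRX1*, a thioredoxin gene, fell by 2.05. *CTT1* rose by 1.86 in *TRA1* cells, and the difference was -3.80 (edgeR adjusted p = 2.01e-06). Of 19 trehalose and glycogen genes 8 rose and 2 fell. The glycogen branching enzyme *GLC3* rose from 6871, 7494 and 7054 to 40899, 46724 and 44741 counts and *GAC1*, the phosphatase subunit that activates glycogen synthase, by 2.25, while the only 2 of the list that fell were *TSL1* and *TPS3*, subunits of the trehalose synthase, which fell by 2.29 and 2.20.

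Amino acid synthesis fell and the scavenging of nitrogen rose. Of 65 amino acid biosynthesis genes 50 fell and 1 rose, with a median of -1.93. *BAT1*, the mitochondrial branched-chain aminotransferase, fell from 39015, 36759 and 36069 to 2194, 2017 and 2040 counts, *LEU9* by 4.52, *ARO4* fell by 4.0 and *ILV3* by 3.99. The raised one was *BAT2*, the cytosolic partner of *BAT1*, at 3997, 3759 and 4053 against 8456, 8328 and 8223. A Gcn4 site (TGACTC, either strand) was present in 41 of the 65 promoters (63.1%), against 7.99% of all promoters, and in 9.27% of raised and 8.78% of lowered genes. The sites of 3 lowered genes are shown in capitals.
LEU9, chrXV:522747-522796, plus strand: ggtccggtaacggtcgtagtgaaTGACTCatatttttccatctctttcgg
BAT1, chrVIII:517337-517386, plus strand: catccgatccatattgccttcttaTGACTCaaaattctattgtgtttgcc
ILV3, chrX:466319-466368, minus strand: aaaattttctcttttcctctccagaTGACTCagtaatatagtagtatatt
Of 25 genes under nitrogen catabolite repression 16 rose and 0 fell, with a median of 1.23 against 0.50 in *TRA1* cells. *PUT1*, proline oxidase, rose 41.0-fold from 615, 860 and 878 to 32721, 29953 and 33363 counts. *UGA4* went from 327, 384 and 432 to 13710, 17918 and 17361, and *DAL80*, a repressor within this group, from 82, 166 and 135 to 4309, 5557 and 5496, or by 5.95 instead of 5.35 on the log2 scale with day 0 replicate 1 alone. *DAL2*, allantoicase, rose 8.25-fold. The change was higher in *tra1Q3* cells for 11 of the 25 and lower for 0, against 13.6% and 17.9% of all genes.

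Of 26 genes of sulfate assimilation and methionine synthesis 12 rose and 5 fell. *MET2*, which opens the branch from homoserine to methionine, rose 15.6-fold from 666, 657 and 709 to 9293, 11504 and 10898 counts, with 379 of its bases overlapped by another gene. *MET30*, the ubiquitin ligase subunit that restrains Met4, rose 9.15-fold. *SAH1*, which clears S-adenosylhomocysteine, fell from 67112, 63974 and 64976 to 5991, 5715 and 5622, and *MET13*, a methylenetetrahydrofolate reductase gene, fell by 3.11. In *TRA1* cells 3 rose and 8 fell. The change was higher in the mutant for 12 and lower for 1, against 13.6% and 17.9% of all genes.

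Genes of lipid synthesis fell. Of 25 ergosterol genes 18 fell and 2 rose, and the 2 that rose, *UPC2* and *ECM22*, are the activators of the others. *ERG6*, a sterol methyltransferase gene, fell from 16125, 16809 and 16719 to 2059, 2022 and 1947 counts, *ERG2* by 3.02, *ERG5* by 2.53 and *ERG1* by 2.34. *ERG5* was at 0.60 in *TRA1* cells, with a difference of -3.15 (edgeR adjusted p = 8.19e-05). Of 13 fatty acid synthesis genes 11 fell and 0 rose. The elongases *ELO3* and *ELO2* fell by 3.47 and 3.2, *ACS2*, the acetyl-CoA synthetase of glucose-grown cells, by 2.73 and *FAS1* by 2.58. Of 29 cell wall genes 10 fell and 3 rose. *FKS1*, the glucan synthase of growing cells, fell from 48137, 45065 and 45064 to 7171, 7351 and 6978 counts, while its alternative *GSC2* rose from 13269, 13635 and 13393 to 55890, 58418 and 59308. The mannoproteins *CWP1* and *CIS3* fell by 2.96 and 2.94, and *MTL1*, a wall stress sensor gene, rose by 2.40. *MID1*, a calcium channel gene of the plasma membrane, was at -0.75.

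The phosphate, zinc and iron regulons had medians of 0.04, 0.14 and 0.04. Of 21 phosphate genes 5 rose and 1 fell, beside 23.3% and 23% of all genes. *PHO3*, the thiamine-repressed phosphatase, fell from 6935, 7206 and 6895 to 531, 496 and 491 counts, and *PHO4*, the activator, rose by 2.34. The transporters *PHO89* and *GIT1* rose by 1.92 and 1.78, and *PHO89* was at 6.04 in *TRA1* cells (difference -4.14, edgeR adjusted p = 1.21e-06). *ZRT1*, the high-affinity zinc transporter, rose by 2.29, and day 3 replicate 2, at 10769 counts, was the lowest of its day beside 18630 and 15609. *ZRG8* rose by 1.62. Of 22 iron genes 7 rose and 2 fell. *FET3* and *FTR1*, which together form the high-affinity iron importer, were those that fell, *FTR1* from 3763, 3742 and 3869 to 823, 783 and 810. *FRE6*, a vacuolar reductase gene, and *FIT3*, a cell wall mannoprotein gene, rose by 2.05 and 1.61. Of 16 meiotic genes 4 rose, namely *IME1*, the master inducer, by 2.79, the cohesin gene *REC8* by 2.15, *UME6*, a regulator of early meiotic genes, by 1.63 and *SPS4* by 1.5. That share is near the 23.3% of all genes that rose. In *TRA1* cells 10 of the 16 rose. The change was lower in *tra1Q3* cells for 7 and higher for 1, against 17.9% and 13.6% of all genes.

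Subunits of the complexes that hold Tra1 were called in 3 of 20 cases for SAGA and in 6 of 13 for NuA4, beside 46.3% of all genes. Of the SAGA genes *ADA2* rose from 1065, 1098 and 1042 to 3071, 2747 and 3133 counts, and *HFI1*, which is needed to keep the complex together, fell by 2.22. *SUS1* fell by 1.06. *UBP8*, *SGF11* and *SGF73*, which with *SUS1* form the deubiquitinating module, were at -0.75, -0.47 and -0.10. *ADA2* moved by -0.60 in *TRA1* cells, and its difference of 2.05 passed the test (edgeR adjusted p = 6.25e-08). Of 13 NuA4 genes 4 rose and 2 fell. *YNG2*, at 621, 599 and 649 counts and then 2782, 2679 and 2930, and *ESA1*, the catalytic subunit, rose by 2.17 and 1.72, *EAF1*, the scaffold specific to NuA4, fell by 1.45, and *ACT1* by 1.31. *ARP4* and *EPL1* were at 0.73 and 0.23.

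Marker genes of the strain were read as follows. All 7 a-specific genes had counts in every library, among them *STE2*, the receptor for the alpha pheromone, at 21942, 20311 and 19876 counts at day 0 and 8434, 6862 and 7600 at day 3. *STE2*, *STE6* and *BAR1* fell, by 1.44, 1.64 and 1.39, and *MFA1*, *MFA2*, *AGA2* and *ASG7* were at -0.03, -0.40, -0.32 and -0.11. The 5 alpha-specific genes, which *MATa* cells normally do not express, also had counts. *SAG1*, the alpha agglutinin, stood at 16739, 15195 and 16074 counts and then at 8403, 6741 and 7118, *MF(ALPHA)1* at 2234, 2071 and 1988 and then at 1012, 945 and 1028, and *STE3*, the receptor for the a pheromone, at 735, 665 and 713 and then at 2957, 2538 and 2994. *MF(ALPHA)2* and *AFB1* were lower, at 367 to 396 and 223 to 263 counts at day 0. The source of these reads was not tested. *LEU2*, carried by the plasmid, went from 30116, 29747 and 29068 to 16385, 12247 and 13699 counts, and *ADE2*, mutated in this strain, rose from 653, 647 and 671 to 3916, 3750 and 3814. *CAN1* rose by 1.74 and *TRP1* was at 0.38.

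The change with age was then compared between the genotypes. *TRA1* cells raised 1232 genes and lowered 1229 by the same rule, and 774 were raised and 850 lowered in both, out of the 1446 and 1423 of the mutant. A further 38 genes rose in *tra1Q3* and fell in *TRA1* cells, and 21 did the reverse. Tested directly over 6247 genes, the change with age was higher in *tra1Q3* cells for 852 (13.6%) and lower for 1116 (17.9%). This difference had a median of -0.15 over all genes, and scaling by library totals moved that to -0.26, against which a difference has to be read. Aged *TRA1* replicate 2 takes part in every one of these differences. Without it 895 were higher and 1077 lower.

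**Figure D4:**
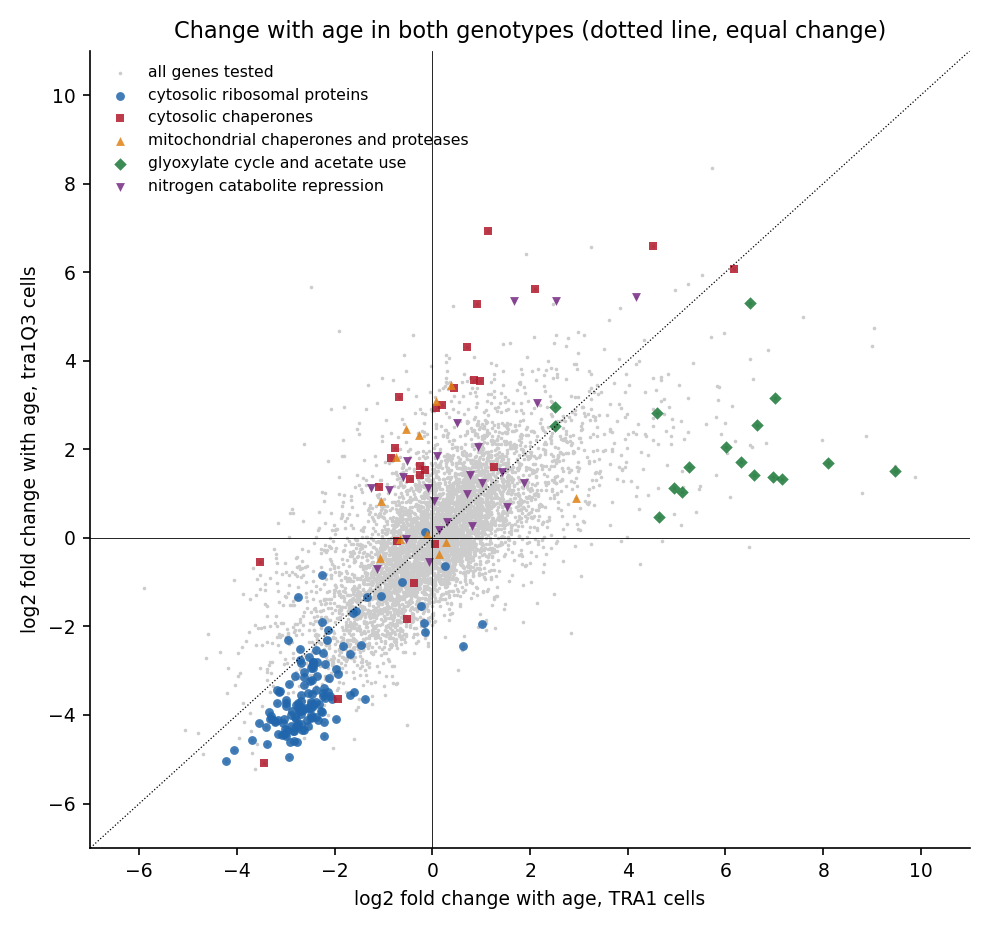
Log2 fold change with age of each gene in *tra1Q3* cells (fit of 6 libraries) against that in *TRA1* cells (fit of 12 libraries), with 5 gene lists coloured and a dotted line of equal change. Of the 27 cytosolic chaperones 19 had a higher change in *tra1Q3* cells by the test of the difference and lie above the line, genes of the glyoxylate cycle and acetate use lie to the right of it in 15 of 17 cases, and ribosomal proteins lie at the lower left, with medians of -3.73 and -2.56.

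The genes that differed most between the genotypes were of opposite kinds. Higher in the mutant, besides *RGI1*, *BTN2* and *HXK1*, were *PFK27* and *HXT4*. *PFK27*, which makes the glycolytic activator fructose 2,6-bisphosphate, rose from 1497, 1498 and 1493 to 11298, 10768 and 11337 counts, whereas it fell by 2.08 in *TRA1* cells. *HXT4* fell by 1.13 in the mutant, from 6612, 6772 and 6066 to 3227, 2726 and 2904, and fell by 5.90 in *TRA1* cells. Lower in the mutant were *DPA10*, *SIP18*, *MLS1*, *GRE1* and *PDC6*, which rose by 8.79 to 9.87 in *TRA1* cells and by 1.02 to 1.62 in *tra1Q3* cells. In these 5 the day 0 counts of replicates 2 and 3 were far above that of replicate 1. With replicate 1 as the only day 0 library their differences shrank from between -8.53 and -7.82 to between -6.37 and -4.64, and each still passed the test. Ribosomal protein genes fell further in the mutant for 77 of 137 genes, 66 without aged *TRA1* replicate 2, and less far for 2.

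**Figure D5:**
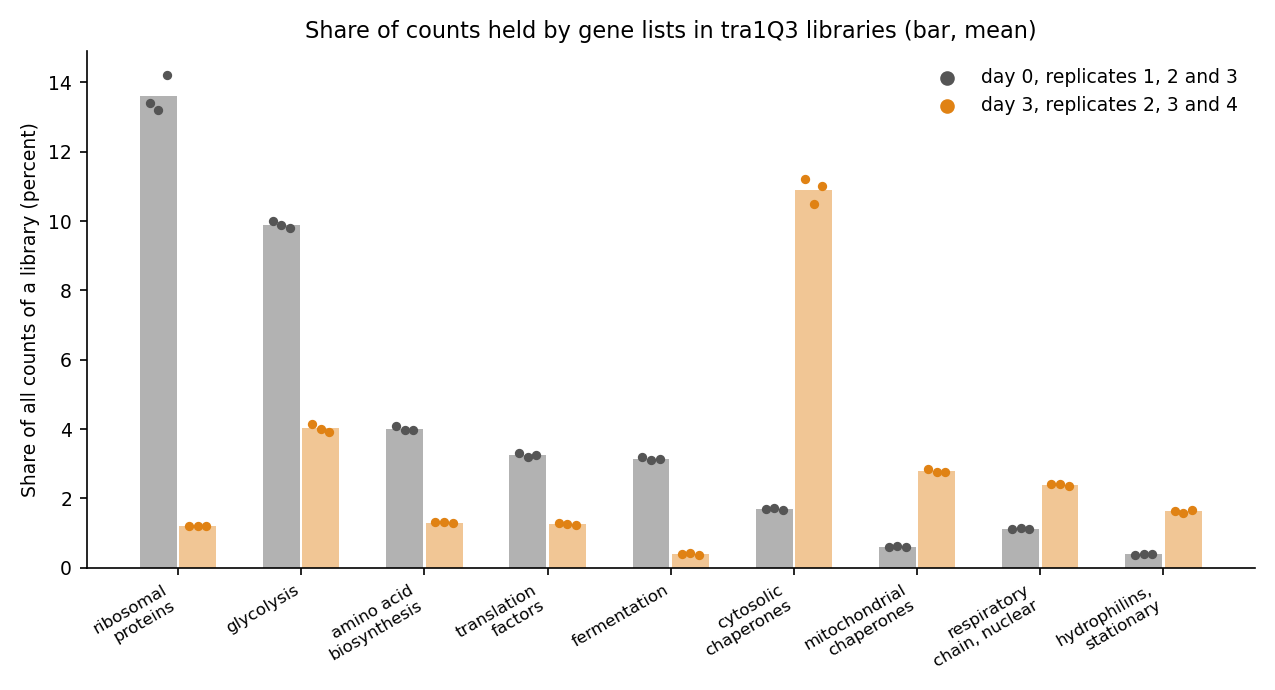
Share of all counts in each *tra1Q3* library held by 9 gene lists, with points for libraries and bars for the mean, grey for day 0 and orange for day 3. Ribosomal proteins held 13.2% to 14.2% at day 0 and 1.2% to 1.21% at day 3, and cytosolic chaperones 1.67% to 1.72% and 10.5% to 11.2%.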

How the data were processed

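Raw counts per gene were deposited by the authors. Per the labels and the study's methods, poly dT enriched paired reads were trimmed with Trimmomatic, aligned to the R64-2-1 genome with STAR 2.5.4b and counted on coding sequences with featureCounts 1.6.0, keeping uniquely mapped reads and ignoring strand. Reads in overlaps of genes can thus be lost, and 1318 of 6691 genes overlap another. Each library has deposited counts of pairs and of reads that lost their mate, which were added. An entry without a gene name, 0.0851% of counts, was left out.

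The count model was that of edgeR 4.0.16, run in R 4.3.3 (TMM, glmQLFit, glmQLFTest) with Benjamini-Hochberg adjustment over all genes tested. Normalized counts are scaled over the 6 libraries. The SE printed with a log2 fold change is its absolute value divided by the square root of the F value of glmQLFTest. The difference between genotypes is the change in *tra1Q3* minus that in *TRA1* cells, from 1 fit of 12 libraries. DESeq2 1.42.0, limma 3.58.1, Python 3.11, numpy 2.4.6, pandas 2.3.3 and matplotlib 3.10.9 were also used. Scripts were tested on simulated data of 6195 genes, where edgeR called 100 of 100 genes changed by a log2 fold change of 1.5. The changed genes were drawn from those well above the filter, and every gene was given the same spread between replicates. The simulation held no aged transcripts at day 0 and no library that stood apart, so it does not speak to those or to genes near the filter. Sampling error at the filter of 10 counts is large, and a zero allows up to 3 counts.

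The members, the 40 gene lists and the tests were chosen with earlier results of these data known. Genes named include the 10 largest called changes in each direction, with 100 or more normalized counts where they are higher and no overlap between days. Also named are up to 4 called members of each list and 2 in the other direction, and all members of lists of 12 or fewer. Added to these are genes the study names and the 5 largest differences between genotypes in each direction. Others are marked, and 1 gene that the rule names is not reported here. Gene names come from the deposited table and RefSeq, and promoters from the RefSeq R64 genome, in which 6659 of 6663 nuclear genes start with ATG at the deposited coordinates.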

Additional observations from a re-analysis of the deposited data

Results flagged for a closer look

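The change with age differed between the genotypes by over 2.5 on the log2 scale for 14 of the genes named for their size, each by the edgeR test of the difference over 6247 genes.

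Higher in *tra1Q3* cells were *RGI1* by 6.56, *BTN2* by 5.75, *PFK27* by 4.95, *HXT4* by 4.75, *HXK1* by 4.74, *HXT6* by 4.46, *APJ1* by 3.48 and *TMA10* by 3.29. Without aged *TRA1* replicate 2 these 8 differences lay between 3.53 and 6.33. *PFK27* and *RGI1* moved in opposite directions in the genotypes, and so did *HXK1*, which fell by 1.31 in *TRA1* cells.

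Lower in *tra1Q3* cells were *DPA10* with -8.53, *SIP18* with -8.03, *MLS1* with -8.02, *GRE1* with -7.89, *PDC6* with -7.82 and *DBP2* with -2.72. The first 5 rest on day 0 levels that differ among replicates. With day 0 replicate 1 alone and without aged *TRA1* replicate 2 they were -6.75 for *DPA10*, -4.36 for *SIP18*, -5.21 for *MLS1*, -4.61 for *GRE1* and -5.91 for *PDC6*. *DBP2*, which was steady among replicates, was then at -2.78.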

How the results depend on the processing

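Only the thresholds moved the counts of called genes by over 1.5 times. At an absolute log2 fold change over 2, 1111 genes were called (526 raised, 585 lowered), and at the adjusted p alone 5563 (2778 and 2785). The difference between genotypes held for 273 genes at an absolute difference over 2.5, of which 149 were higher and 124 lower in *tra1Q3* cells. The alternatives to the 1446 raised and 1423 lowered genes were other scalings, filters and tools, a test against the log2 threshold (1285 and 1318), read pairs only, a fit of 12 libraries, removal of the aged profiles and day 0 replicate 1 alone (1439 and 1438). In each of these, 0 genes were called in the opposite direction. Leaving out each library in turn gave 2825 to 2873 calls, and 1926 to 1994 for the difference between genotypes. Upper quartile scaling moved the median of all genes to 0.10 and gave 1567 raised and 1327 lowered genes. The fits with day 0 replicate 1 alone for the difference (840 higher, 1062 lower), and those also without aged *TRA1* replicate 2 (887 and 1085), were chosen after seeing the data.

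Replicate numbers 2 and 3 occur at both days, but the labels do not say that a number marks a shared culture, and the deviations of equal numbers correlated at -0.105 and -0.0336. With the replicate number as a block, which uses these 4 libraries for the pairing, 1423 genes were raised and 1428 lowered.

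Of 257 genes named in the text, 14 lost their call under some of 18 alternatives and 5 gained one, with 0 reversals. *PDC6*, *DPA10*, *SIP18* and *MLS1* fell under the size threshold without day 0 replicate 1, at 0.49, 0.87, 0.94 and 0.95. *POT1* reached 1.27 and *RPL28* -1.2 with day 0 replicate 1 alone, and *TRA1* 1.04 under upper quartile scaling. Medians of 0 gene lists changed sign. Depth limits genes near the filter of 10 counts, and 3 libraries a group limit every estimate of spread.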

Other observations

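The transcripts ranked highest per kb of coding sequence in the aged mutant were largely other ones than those in the young. These genes were chosen after their values were seen, by their normalized counts per kb of coding sequence. At day 0 *TDH3*, a glyceraldehyde phosphate dehydrogenase gene, ranked 1 with 668999, followed by the small ribosomal protein gene *RPL41A*, *ADH1*, *RPL41B* and *ENO2*. At day 3 *TDH3* was still at rank 11 and *RPL41A* at rank 21, whereas *RPL41B* stood at rank 144, *ADH1* at rank 159 and *ENO2* at rank 518. *HOR7*, a stress gene that was at rank 9 at day 0 with 248100, ranked 1 at day 3 with 1739105. *HSP26* moved from rank 485 to 2, *EGO4* from rank 290 to 3, *TMA10* from 650 to 4 and *HSP30*, a stress protein of the plasma membrane, from 111 to 5. *MBF1*, a transcriptional coactivator, moved from 228 to 8, with a log2 fold change of 3.43. The 20 genes with most counts held 16.4% to 16.9% of a library at day 0 and 19.5% to 20.6% at day 3.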
